A study of Homo sapiens with 8 samples.

Results

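The transcription of 10 genes was followed in nascent RNA from fibroblasts entering oncogene-induced senescence: the 7 inhibitors of cyclin-dependent kinases (CDKN1A, CDKN1B, CDKN1C, CDKN2A, CDKN2B, CDKN2C and CDKN2D), the antisense RNA CDKN2B-AS1 and the metabolic gene MTAP, which lie beside CDKN2A and CDKN2B on chromosome arm 9p21, and RB1, through which these inhibitors arrest the cell cycle. The genes were taken by name, and each matched 1 of the 27945 genes in the count table. Of these 10 genes, 7 passed the filter on low counts and could be tested, and CDKN1C, CDKN2C and CDKN2D did not. IMR90 cells, primary human lung fibroblasts grown at low oxygen, carried H-RAS fused to the estrogen receptor (ER:RAS), so that 4-hydroxytamoxifen (4-OHT) switches the oncogene on. There were 4 groups of 2 libraries. Besides control cells these were 3 senescent groups, treated with 100 nM 4-OHT and taken on day 6, which carried shControl, shMETTL3 or shMETTL14. Each knockdown used 1 hairpin per target according to the methods, and no shRNA is named for control cells, so that effects of senescence and of infection with a hairpin cannot be told apart. fastGRO-seq lets polymerases in isolated nuclei run on with 4-thio-UTP and sequences the tagged RNA, which reads out transcription in progress. The study describes its fastGRO-seq experiments as biologically independent, without detail in the labels on cultures, and the p-values measure the spread between these libraries.

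The CIP/KIP inhibitors p21 (CDKN1A), p27 (CDKN1B) and p57 (CDKN1C) bind and block many cyclin-CDK complexes, whereas the INK4 inhibitors p16 (CDKN2A), p15 (CDKN2B), p18 (CDKN2C) and p19 (CDKN2D) bind CDK4 and CDK6 and keep them from cyclin D. Either way the retinoblastoma protein RB1 stays underphosphorylated and holds back E2F factors, so that genes for DNA replication stay off. In fibroblasts with an active RAS oncogene, p16 and p21 are textbook effectors of the arrest, and CDKN2B-AS1 (ANRIL) is known for binding Polycomb proteins that silence the INK4 genes.

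The control libraries held 18494186 and 18781376 counts, the shControl libraries 20306299 and 19976761, the shMETTL3 libraries 15688334 and 14897360, and the shMETTL14 libraries 17230672 and 18074200. Ribosomal RNA genes, with LOC100507412 that spans them, took 86.2% to 92.5% of each total, which left 1513930 to 2048475 counts on all other genes. A normalised count below is a count scaled to the mean library size with TMM factors, fold changes are on the log2 scale, and a gene is called changed at an adjusted p below 0.05. METTL3, the methyltransferase targeted by the first knockdown, had normalised counts of 70.8 and 67.9 in control cells, 91.0 and 52.3 in shControl cells, 16.4 and 18.0 in shMETTL3 cells and 73.0 and 59.0 in shMETTL14 cells. Both shMETTL3 libraries lay under the other 6, as their label says. METTL14, its partner subunit, had 53.1 and 47.9 in control cells, 28.4 and 31.2 in shControl cells, 42.1 and 45.6 in shMETTL3 cells and 18.0 and 14.7 in shMETTL14 cells. The shMETTL14 libraries were lowest of the 8. Against shMETTL3 cells METTL14 was lower (log2 fold change -1.41, SE 0.32, adjusted p = 0.0010, edgeR's quasi-likelihood test with Benjamini-Hochberg adjustment), whereas against shControl the difference of -0.86 did not pass (adjusted p = 0.076, edgeR).

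In senescent shControl cells against control cells, CDKN1A, CDKN2B, CDKN2B-AS1 and MTAP were called higher and none of the 7 tested genes lower, where 13.3% of the 12844 genes tested were higher and 13.3% lower (edgeR). Scaled by library size alone, 2 of the 7 were higher and 1, RB1, lower. After METTL3 knockdown CDKN2B and CDKN2B-AS1 were called higher than with shControl and none of the 7 lower, beside 12.2% of genes higher and 11.2% lower. METTL14 knockdown raised CDKN1A and lowered MTAP and RB1, beside 9.15% higher and 12% lower. These are 4, 2 and 3 of the 7 genes. CDKN2B-AS1 is taken to share reads with CDKN2B, an assumption set out below. With those reads left out it was lower in senescence (-1.01), so its higher call there rests on counts over CDKN2B. After METTL3 knockdown the part outside was 0.59 and did not pass. Set directly against each other, shMETTL14 cells had more CDKN1A and less CDKN2B, CDKN2B-AS1, MTAP and RB1 than shMETTL3 cells, 1 gene higher and 4 lower beside 16.5% and 18.7% of genes. Against control cells, 4 of 7 genes were higher and 0 lower in shMETTL3 cells (20.1% and 20.1% of genes). In shMETTL14 cells 3 were higher and 1 lower (19.7% and 20.5%). CDKN2B-AS1 was again among the higher by its whole span. The 6 comparisons share libraries and are not independent. The median log2 fold change of the 7 genes was 0.87 in senescence and, against shControl, -0.08 for METTL3 knockdown and -0.24 for METTL14 knockdown, beside -0.03, -0.03 and -6.4e-05 over all genes tested. The 0.87 is the value of CDKN2B-AS1 itself, and with the value outside CDKN2B in its place the median is that of CDKN2A, 0.50, which did not pass.

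The scaling sets where 0 lies. When TMM was replaced by library size alone, ribosomal RNA included, the median of all genes tested moved by -0.50 in senescence, 0.61 after METTL3 knockdown, 0.35 after METTL14 knockdown, -0.26 between the knockdowns, and 0.12 and -0.14 for shMETTL3 and shMETTL14 cells against control. Of the genes called, 13.1% were then higher in senescence (50.1% with TMM), 93.7% after METTL3 knockdown (52.3%) and 81.7% after METTL14 knockdown (43.2%). Fold changes here are relative to the other genes of a library, and a change common to all of them would not be seen.

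**Figure D1:**
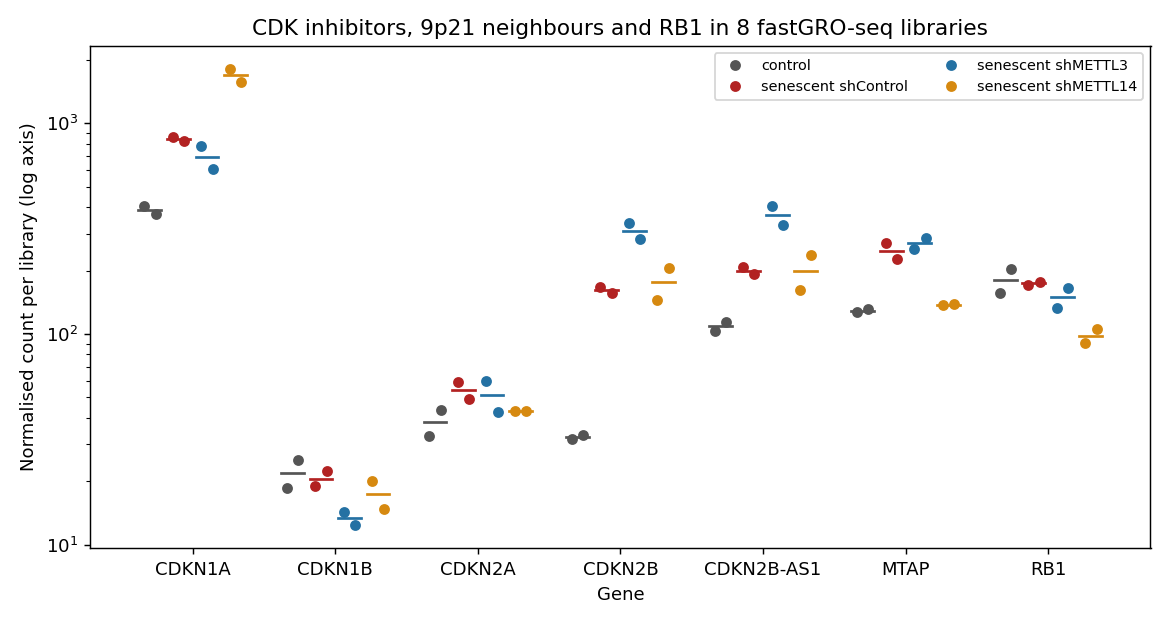
Normalised count on a log axis of the 7 tested genes in each of the 8 libraries, with points for libraries, bars for group means and colors for the 4 groups. CDKN1A is highest with shMETTL14 (1816 and 1577), CDKN2B with shMETTL3 (337 and 283), and MTAP with shMETTL14 (137 and 139) lies near control (127 and 131).

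CDKN1A encodes p21 and lies on the plus strand at chr6:36644237-36655116 in hg19, the build of the count table, which counts reads over exons and introns. Its normalised count was 406 and 371 in control cells, 858 and 828 in shControl cells, 782 and 610 in shMETTL3 cells, and 1816 and 1577 in shMETTL14 cells. The 4 groups did not overlap: control libraries were lowest, shMETTL14 libraries highest, and both shMETTL3 libraries lay under both shControl libraries. In senescence CDKN1A rose 2.17-fold (log2 fold change 1.12, SE 0.15, adjusted p = 1.1e-06, edgeR; log2 fold change 0.62 with library size alone), and METTL14 knockdown raised it a further 2.01-fold over shControl (1.01, SE 0.14, adjusted p = 6.6e-06, edgeR), to 4.36 times control cells. After METTL3 knockdown the difference from shControl was -0.28 (SE 0.14, adjusted p = 0.17, edgeR) and did not pass, while CDKN1A stayed 1.79-fold above control cells (adjusted p = 4.2e-05, edgeR). That small difference has no firm direction, as it was 0.33 with library size alone and passed at -0.47 without shMETTL3 replicate 1 (adjusted p = 0.018, edgeR; 0.018 to 0.91 over the alternatives). The direct difference between the knockdowns was 1.29 (SE 0.14, adjusted p = 1.0e-07, edgeR). The paper reports p21 as unaffected by either knockdown on western blots, which measure protein and not nascent RNA. DINOL, an RNA on the other strand, shares 951 bases with CDKN1A but had at most 5 counts in any library.

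The promoters of the inhibitor genes that changed are shown for their sequence context, each as the 250 bases before and 50 after the start in the RefSeq table for GRCh38.p14, a build whose coordinates differ from those of the counts. Of the 10 genes 9 matched the table, with 12 promoters. Both strands were searched for the GC box (GGGCGG or CCGCCC, in 45.0% of all 35116 promoters), TATAAA or TTTATA (11.5%), CCAAT or ATTGG (34.6%), E2F letters (TTTCGCGC, TTTGGCGC, GCGCGAAA or GCGCCAAA, 1.15%) and AP-1 letters (TGANTCA, 7.71%). The CDKN1A promoter is chr6:36678464-36678763 on the plus strand. Capitals mark its 4 GC boxes, the last pair of which overlap by 1 base, and none of the other letters occurs in this window.
CDKN1A promoter: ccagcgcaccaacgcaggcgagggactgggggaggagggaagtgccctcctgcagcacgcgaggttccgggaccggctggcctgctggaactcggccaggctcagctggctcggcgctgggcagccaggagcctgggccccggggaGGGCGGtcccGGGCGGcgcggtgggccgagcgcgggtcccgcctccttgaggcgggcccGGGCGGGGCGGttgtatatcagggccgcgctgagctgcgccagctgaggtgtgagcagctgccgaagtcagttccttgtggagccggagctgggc

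CDKN1B, the gene of p27 (plus strand, chr12:12870204-12875316), was thinly read. Its normalised count was 18.6 and 25.3 in control cells, 18.9 and 22.3 in shControl cells, 14.4 and 12.3 in shMETTL3 cells, and 19.99 and 14.7 in shMETTL14 cells. The control, shControl and shMETTL14 libraries overlapped, and the shMETTL3 libraries were the lowest of the 8. No comparison passed the test: the difference was -0.09 in senescence (SE 0.38, adjusted p = 0.90, edgeR), -0.63 after METTL3 knockdown (SE 0.42, adjusted p = 0.31, edgeR) and -0.24 after METTL14 knockdown (SE 0.40, adjusted p = 0.73, edgeR). The 95% interval of the first spans -0.84 to 0.66.

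CDKN1C, the gene of p57 (minus strand, chr11:2904448-2906995), had 9 and 8 counts in control cells, 2 and 2 in shControl cells, 0 and 0 in shMETTL3 cells, and 0 and 3 in shMETTL14 cells. The control libraries lay above the 6 senescent ones, but too few reads remained for the test. From the summed counts and the TMM library sizes, CDKN1C was 3.26-fold lower in shControl than in control cells (exact conditional 95% interval 1.06 to 13.3) and 4.85-fold lower in shMETTL14 cells (1.40 to 25.8). Against a floor of 3 counts per library it was at least 2.52-fold lower in shMETTL3 cells than in control cells. Such intervals and floors cover counting error only.

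CDKN2A encodes p16 and, from an upstream first exon, p14ARF. The counted span is that of the longer ARF transcript (minus strand, chr9:21967751-21994490), so that reads of the 2 products are summed. Its normalised count was 32.8 and 43.5 in control cells, 59.1 and 49.0 in shControl cells, 59.5 and 42.7 in shMETTL3 cells, and 43.0 and 43.2 in shMETTL14 cells. Both shControl libraries lay above both control libraries, while the knockdown libraries overlapped control or shControl cells. The difference in senescence was 0.50 (SE 0.27, adjusted p = 0.18, edgeR), with a 95% interval of -0.03 to 1.02, so that neither no change nor a doubling lies outside it. The difference was 0.00011 with library size alone. The differences from shControl were -0.08 after METTL3 knockdown (SE 0.26, adjusted p = 0.86, edgeR) and -0.32 after METTL14 knockdown (SE 0.27, adjusted p = 0.44, edgeR), and both were above 0 with library size alone (0.53 and 0.03).

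CDKN2B, the gene of p15 and a textbook target of TGF-beta signaling, lies on the minus strand at chr9:22002902-22009312. Its normalised count was 31.9 and 33.1 in control cells, 167 and 157 in shControl cells, 337 and 283 in shMETTL3 cells, and 145 and 206 in shMETTL14 cells. Control libraries were lowest and shMETTL3 libraries highest, without overlap with any other group, whereas the shMETTL14 libraries lay on either side of shControl. CDKN2B rose 4.96-fold in senescence (log2 fold change 2.31, SE 0.22, adjusted p = 2.9e-09, edgeR), and METTL3 knockdown raised it a further 1.91-fold (0.94, SE 0.17, adjusted p = 0.00014, edgeR), to 9.49 times control cells. After METTL14 knockdown the difference from shControl was 0.12 (SE 0.17, adjusted p = 0.69, edgeR) and turned to -0.16 without shMETTL14 replicate 2. The direct difference between the knockdowns passed, with CDKN2B lower in shMETTL14 than in shMETTL3 cells (-0.82, SE 0.16, adjusted p = 0.00027, edgeR). With shMETTL14 it remained 5.38-fold above control cells (adjusted p = 4.8e-10, edgeR). If the strands were not separated, the CDKN2B count would also hold antisense reads of CDKN2B-AS1, described below.

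The promoters of CDKN2B (chr9:22009256-22009555, minus strand) and of its antisense partner CDKN2B-AS1 (chr9:21994541-21994840, plus strand), both in GRCh38.p14 from RefSeq, are given 5' to 3'. Each holds 2 GC boxes, in capitals, and none of the other letters searched. Such matches describe the letters and are not shown to be bound.
CDKN2B promoter: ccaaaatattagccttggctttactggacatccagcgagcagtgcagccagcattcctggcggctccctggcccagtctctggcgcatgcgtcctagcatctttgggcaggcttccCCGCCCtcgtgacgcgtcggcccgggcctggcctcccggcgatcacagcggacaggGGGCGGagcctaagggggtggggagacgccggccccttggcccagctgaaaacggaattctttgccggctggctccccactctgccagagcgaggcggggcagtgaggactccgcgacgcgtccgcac
CDKN2B-AS1 promoter: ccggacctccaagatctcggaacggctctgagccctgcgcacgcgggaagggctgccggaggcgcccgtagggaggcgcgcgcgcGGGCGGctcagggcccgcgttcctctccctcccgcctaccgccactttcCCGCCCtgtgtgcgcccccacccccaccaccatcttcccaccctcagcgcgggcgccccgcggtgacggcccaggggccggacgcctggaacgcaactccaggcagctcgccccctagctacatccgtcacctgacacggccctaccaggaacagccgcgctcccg

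CDKN2C and CDKN2D, the other INK4 genes, had too few reads for the test. CDKN2C (p18, plus strand, chr1:51434367-51440306) had 10 and 16 counts in control cells, 2 and 1 in shControl cells, 0 and 4 in shMETTL3 cells, and 0 and 1 in shMETTL14 cells. Every senescent library lay under both control libraries, and the summed count was 6.64-fold lower in shControl than in control cells (exact 95% interval 2.03 to 34.3), 5.79-fold lower with shMETTL3 (2.01 to 22.8) and 22.3-fold lower with shMETTL14 (3.66 to 913). CDKN2D (p19, minus strand, chr19:10677138-10679655) had 6 and 5 counts in control cells, 5 and 6 in shControl cells, 0 and 0 in shMETTL3 cells, and 4 and 2 in shMETTL14 cells. The raw counts of control and shControl cells overlapped, with a scaled ratio of 1.31 (exact 95% interval 0.513 to 3.32), and the shMETTL3 libraries had none, at least 2.12-fold lower than shControl.

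CDKN2B-AS1 runs on the plus strand at chr9:21994790-22121093, starting 0.3 kb from the start of CDKN2A in the opposite direction, and contains the whole of CDKN2B in antisense. Where a well-read gene lies inside another that runs the opposite way, counts mostly looked as if the strands were not separated. Among 234 such pairs, the outer gene had the smaller count in any library for 1 pair. An outer gene that is better read for other reasons would also meet this check. Only inner genes averaging at least 20 counts were taken, which leaves out DINOL inside CDKN1A. DINOL had 5 counts in shMETTL14 replicate 1, where CDKN1A had 1817, so sharing was not seen for that pair. CDKN2B, with 5.08% of the span, is therefore only assumed to add its reads to CDKN2B-AS1. The normalised count of the whole span was 104 and 114 in control cells, 207 and 193 in shControl cells, 404 and 329 in shMETTL3 cells, and 161 and 236 in shMETTL14 cells. It followed CDKN2B, rising by 0.87 in senescence (SE 0.18, adjusted p = 0.00050, edgeR) and by 0.88 after METTL3 knockdown (SE 0.16, adjusted p = 0.00024, edgeR), with -0.01 after METTL14 knockdown (SE 0.17, adjusted p = 0.97, edgeR). The first of these did not pass with library size alone (0.38, adjusted p = 0.13, edgeR; 2.5e-08 to 0.13 over the alternatives).

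On this assumption, the part of CDKN2B-AS1 outside CDKN2B went the other way in senescence. That part could also hold reads of CDKN2B that run past its span. The share of CDKN2B-AS1 reads inside CDKN2B was 29.8% in control cells and 81.0%, 84.5% and 88.6% in the shControl, shMETTL3 and shMETTL14 groups. Outside, 81 and 93 raw counts were left in control cells, 34 and 32 in shControl cells, 66 and 49 in shMETTL3 cells, and 16 and 28 in shMETTL14 cells, or normalised counts of 71.7 and 81.0, 40.2 and 35.6, 67.7 and 46.5, and 15.99 and 29.5. The control libraries were highest and the shMETTL14 libraries lowest, and the groups did not overlap. In the same fit, this remainder fell by 1.01 in senescence (SE 0.27, adjusted p = 0.0057, edgeR), and it was lower in shMETTL14 than in shMETTL3 cells (-1.33, SE 0.30, adjusted p = 0.0012, edgeR) and than in control cells (-1.75, SE 0.29, adjusted p = 1.9e-05, edgeR). Its differences from shControl did not pass after METTL3 knockdown (0.59, SE 0.28, adjusted p = 0.14, edgeR) or METTL14 knockdown (-0.74, SE 0.33, adjusted p = 0.11, edgeR). The fall in senescence kept its direction but missed the threshold without control replicate 2 (-0.92, adjusted p = 0.059), shControl replicate 1 (-1.07, 0.051) or shControl replicate 2 (-0.92, 0.077; edgeR, 4.6e-06 to 0.077 over the alternatives). The difference between the knockdowns missed it without shMETTL14 replicate 1 (-0.97, adjusted p = 0.057, edgeR; 1.5e-05 to 0.057 over the alternatives), and that from shControl after METTL14 knockdown passed without shMETTL14 replicate 2 (-1.24, adjusted p = 0.049, edgeR; 0.049 to 0.61). Without shMETTL3 replicate 1, the remainder in shMETTL3 cells was also called lower than in control cells (-0.71 in place of -0.42, adjusted p = 0.035, edgeR; 0.035 to 0.61). After METTL3 knockdown the remainder was called higher than in shControl cells with library size alone (1.19, adjusted p = 0.00041, edgeR) or library size without ribosomal RNA (0.84, adjusted p = 0.021, edgeR; 0.00041 to 0.50 over the alternatives).

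**Figure D2:**
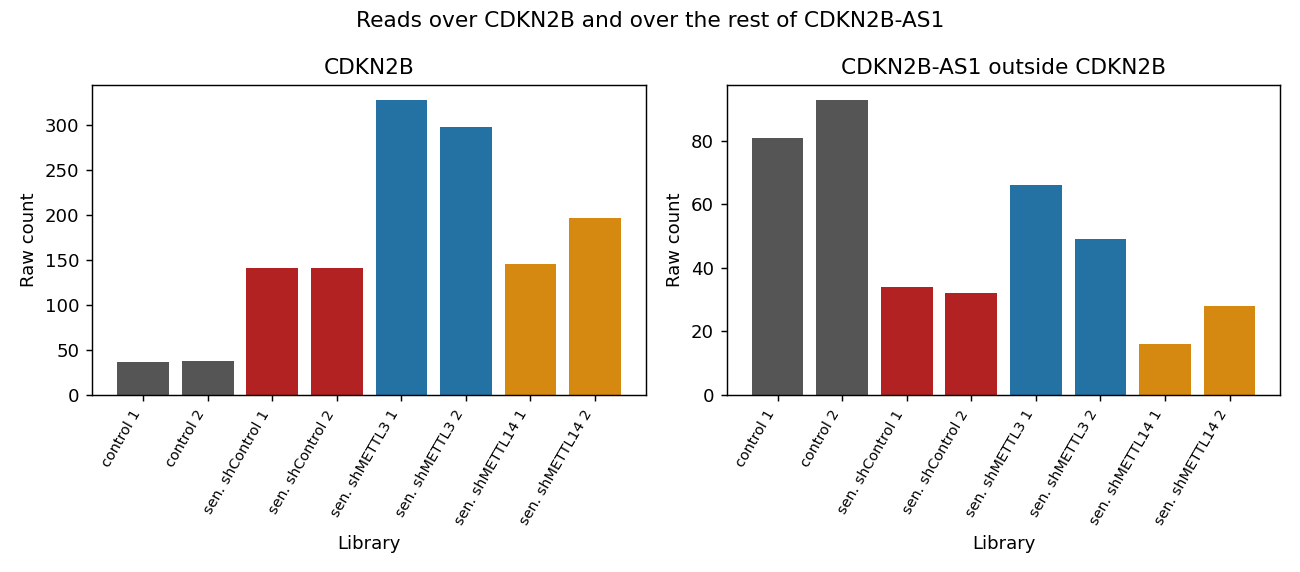
Raw count per library over CDKN2B (left) and over the part of CDKN2B-AS1 outside CDKN2B (right), with bars for single libraries and colors for the 4 groups. Control cells are lowest on the left (36 and 38) and highest on the right (81 and 93).

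MTAP encodes methylthioadenosine phosphorylase of the methionine salvage pathway and is often deleted together with CDKN2A in tumors. It lies on the plus strand at chr9:21802635-21865969 and shares no bases with another gene of the table. Its normalised count was 127 and 131 in control cells, 271 and 226 in shControl cells, 254 and 286 in shMETTL3 cells, and 137 and 139 in shMETTL14 cells. The libraries fell into a low pair of groups, control and shMETTL14, and a high pair, shControl and shMETTL3, which overlapped each other. MTAP rose 1.92-fold in senescence (log2 fold change 0.94, SE 0.15, adjusted p = 2.8e-05, edgeR) and fell by 0.85 after METTL14 knockdown (SE 0.16, adjusted p = 0.00023, edgeR). Against control cells, shMETTL14 cells then differed by 0.10 (SE 0.16, adjusted p = 0.67, edgeR), with 7.47% of the rise left, and shMETTL3 cells by 1.07 (SE 0.15, adjusted p = 2.1e-06, edgeR). METTL3 knockdown gave 0.12 against shControl (SE 0.15, adjusted p = 0.58, edgeR), and the knockdowns differed by -0.97 (SE 0.15, adjusted p = 1.6e-05, edgeR). Under library size alone, neither the rise (0.44, adjusted p = 0.064, edgeR; 8.6e-11 to 0.064 over the alternatives) nor the fall after METTL14 knockdown (-0.49, adjusted p = 0.055, edgeR; 1.5e-05 to 0.055) passed, and a rise after METTL3 knockdown did (0.75, adjusted p = 0.00089, edgeR; 0.00089 to 1.00).

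RB1, the retinoblastoma gene and the common endpoint of the inhibitors (plus strand, chr13:48877883-49056026), had normalised counts of 156 and 204 in control cells, 171 and 177 in shControl cells, 132 and 166 in shMETTL3 cells, and 91.0 and 105 in shMETTL14 cells. The shMETTL14 libraries were the lowest of the 8, and shControl libraries lay between the control libraries. RB1 fell by 0.83 after METTL14 knockdown (SE 0.18, adjusted p = 0.0016, edgeR) and was as low against control cells (-0.87, SE 0.18, adjusted p = 0.00027, edgeR). It differed by -0.05 in senescence (SE 0.17, adjusted p = 0.88, edgeR) and by -0.22 after METTL3 knockdown (SE 0.17, adjusted p = 0.39, edgeR). LPAR6 lies inside RB1 on the other strand with 18.9% of its span, and without its reads, a choice made after seeing the data, the fall after METTL14 knockdown was -0.79 (adjusted p = 0.0026, edgeR; 9.0e-05 to 0.089 over the other alternatives). It did not pass with library size alone (-0.48, adjusted p = 0.089, edgeR), where a fall in senescence did (-0.54, adjusted p = 0.027, edgeR; 0.027 to 1 over the alternatives). The difference between the knockdowns was -0.61 (SE 0.18, adjusted p = 0.011, edgeR) and missed the threshold with DESeq2 (adjusted p = 0.050), with library size taken without ribosomal RNA and LOC100507412, which spans its genes (-0.40, adjusted p = 0.079, edgeR, added after seeing the data), without shMETTL3 replicate 2 (-0.41, adjusted p = 0.13, edgeR) or without shMETTL14 replicate 1 (-0.53, adjusted p = 0.12, edgeR; 0.00078 to 0.13 over the alternatives).

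**Figure D3:**
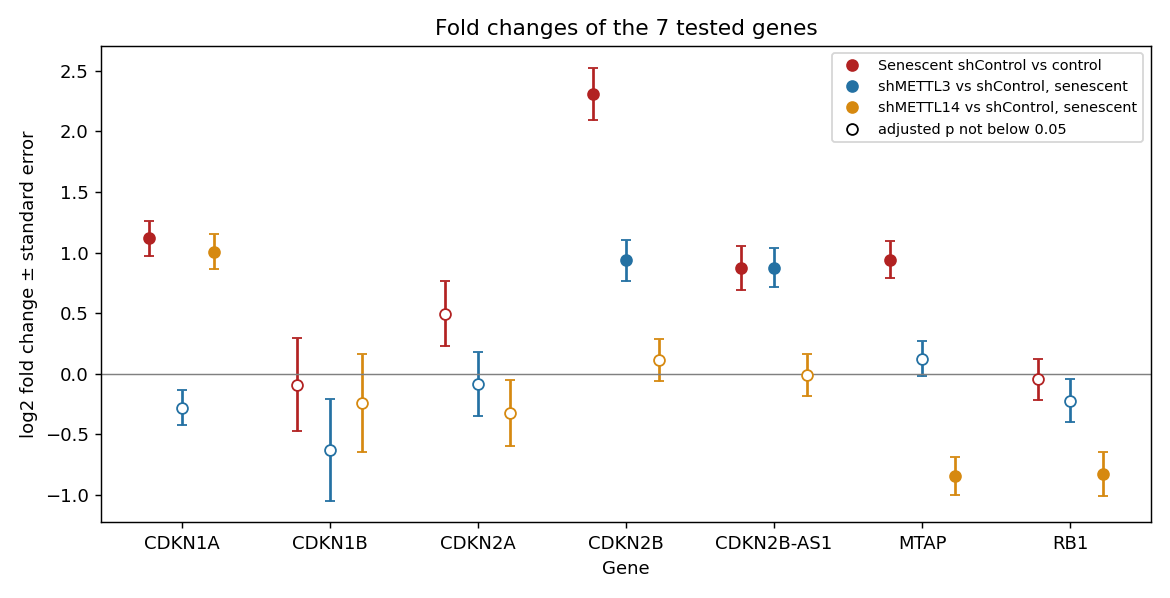
Log2 fold change with its standard error for the 7 tested genes in 3 comparisons, with filled points for an adjusted p below 0.05 (edgeR, TMM). CDKN2B has the tallest point (2.31 in senescence), and the points of MTAP (-0.85) and RB1 (-0.83) after METTL14 knockdown are the filled ones below 0, which library size alone left above the threshold.

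Levels were compared between genes as RPKM, the TMM-scaled count relative to counted span and library size, ribosomal RNA included. Leaving ribosomal RNA out of the library size raises all levels of a library by the same factor and leaves their order within it as it is. Without TMM factors, the level of CDKN1A in control cells was 2.18 with ribosomal RNA in the library size. It was 21.6 without ribosomal RNA and LOC100507412. In control cells CDKN1A had a level of 1.99 and led, followed by CDKN2B (0.283), CDKN1B (0.239), CDKN1C (0.164), MTAP (0.114), CDKN2D (0.107), CDKN2C (0.107), CDKN2A (0.0796), RB1 (0.0563) and CDKN2B-AS1 (0.0481). CDKN2B and CDKN1B did not differ beyond the spread between libraries, nor did MTAP, CDKN2D and CDKN2C, nor RB1 and CDKN2B-AS1, and CDKN2A overlapped CDKN2C. With shControl the level of CDKN2B was 1.41 and stood apart below CDKN1A (4.32) and above CDKN1B (0.225) and MTAP (0.219), which overlapped each other, then came CDKN2D (0.139), CDKN2A (0.113), CDKN2B-AS1 (0.0882), RB1 (0.0545), CDKN1C (0.0503) and CDKN2C (0.0163). With shMETTL3 CDKN2B (2.70) came near CDKN1A (3.57) without overlap, ahead of MTAP (0.238), CDKN2B-AS1 (0.162) and CDKN1B (0.146), of which the last pair overlapped, and of CDKN2A (0.107), RB1 (0.0467) and CDKN2C (0.0178), with CDKN1C and CDKN2D at 0. With shMETTL14 CDKN1A had a level of 8.70, above CDKN2B (1.53), CDKN1B (0.189) and MTAP (0.122), and CDKN2A (0.0899), CDKN2B-AS1 (0.0876) and CDKN2D (0.0676) followed with overlap between neighbours, then CDKN1C (0.0346), RB1 (0.0307) and CDKN2C (0.00495), the first of which overlapped its neighbours. CDKN2B-AS1 is placed by its whole span here, shared reads included. Outside CDKN2B its level was 0.0334 and 0.0377 in control cells, 0.0187 and 0.0166 in shControl cells, 0.0315 and 0.0216 in shMETTL3 cells, and 0.00744 and 0.0137 in shMETTL14 cells, under RB1 in each library. Among all genes tested CDKN1A was at percentile 97.6 by level in control cells and 99.3 with shMETTL14, and CDKN2B went from 83.9 in control cells to 96.2 in shControl, 98.0 in shMETTL3 and 96.5 in shMETTL14 cells. CDKN2A was at 44.8 in control cells and 58.1 with shControl.

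Among the cyclins and kinases that the inhibitors bind, 7 of 9 genes were tested. Of all genes tested, 13.3% were higher and 13.3% lower in senescence, and 12.2% and 11.2% after METTL3 knockdown. After METTL14 knockdown these shares were 9.15% and 12%, and between the knockdowns 16.5% and 18.7%. The counts of 7 genes below are too small to be read as a result about the list. In senescence 2 rose and 1 fell: CCND2 (0.88) and CCND1 (0.75), which encode D cyclins, were higher, and CDK6 (-0.51), an INK4 target, was lower, with a list median of -0.42 beside -0.03 for all genes. This balance depends on the scaling, as 0 were higher and 3 lower with library size alone. After METTL3 knockdown 1 rose and 1 fell, CDK2 (1.13) and CCND1 (-0.74), with a median of -0.51 beside -0.03, and with library size alone 2 were higher and 0 lower. After METTL14 knockdown 0 rose and 2 fell, CCND1 (-0.63) and CCNA2, an S-phase cyclin with 6 and 10 counts in shControl cells and 0 and 2 in shMETTL14 cells, and the median was -0.08 beside -6.4e-05. CCND1 had a normalised count of 1225 and 1277 in control cells, 2152 and 2046 in shControl cells, 1257 and 1265 in shMETTL3 cells, and 1321 and 1383 in shMETTL14 cells. Both shControl libraries stood above the other 6. The direct test between the knockdowns called CCND2 higher (0.78) and CDK2 lower (-1.18) with shMETTL14. Each call named for CCND2, CDK6, CDK2 and CCNA2 was lost in at least 1 fit with a library left out, and those for CCND1 were kept. On western blots, the paper reports the decrease of cyclin A protein as unaffected by either knockdown.

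Of the other pocket proteins and the E2F factors with their DP partners, 9 of 12 were tested. Over all genes tested, 13.3% were higher and 13.3% lower in senescence (median -0.03), and 12.2% and 11.2% after METTL3 knockdown (median -0.03). METTL14 knockdown gave 9.15% and 12% (median -6.4e-05), and the direct test between the knockdowns 16.5% and 18.7%. Counts as small as those of this list are not read as a result about it. In senescence E2F7, a repressor E2F, rose by 2.71 (SE 0.21, adjusted p = 6.3e-11, edgeR) and TFDP2 fell by 0.63, with a median of -0.11. After METTL3 knockdown E2F7 rose by a further 1.86 (SE 0.17, adjusted p = 9.5e-09, edgeR) and E2F3 by 0.55, and TFDP1 fell by 0.61, with a median of -0.08. After METTL14 knockdown 0 rose, TFDP1 fell by 0.82 and RBL2, the gene of p130, by 0.80, with a median of -0.55. The raw count of E2F7 was 70 and 84 in control cells, 392 and 381 in shControl cells, 1549 and 1715 in shMETTL3 cells, and 302 and 498 in shMETTL14 cells. As with CDKN2B, the shMETTL3 libraries were highest and the shMETTL14 libraries lay on either side of shControl. Between the knockdowns 1 gene of this list was higher and 4 lower with shMETTL14, led by E2F7 (-1.96, SE 0.17, adjusted p = 3.4e-09, edgeR). With library size alone 1 was higher and 5 lower in senescence, 4 higher and 0 lower after METTL3 knockdown, and 1 higher and 1 lower after METTL14 knockdown. Leaving out a library ended each call named for TFDP1, TFDP2, E2F3 and RBL2 in at least 1 fit, and those for E2F7 were kept.

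The list of regulators of the inhibitor genes or proteins, which includes MDM2, Polycomb subunits and histone demethylases, ETS and ID factors, SMADs and ubiquitin ligase subunits, had 26 of 30 genes tested. Beside these counts, 13.3% of all genes tested were higher and 13.3% lower in senescence, and 12.2% and 11.2% after METTL3 knockdown. The shares were 9.15% and 12% after METTL14 knockdown, and 16.5% and 18.7% between the knockdowns. The all-gene medians against shControl or control were -0.03, -0.03 and -6.4e-05. In senescence 3 rose, near the share of all genes: ETS1 (1.06), MYC (0.99) and JUNB (0.75). There 6 fell, led by SMAD3 (-1.51), EZH2 (-1.24) and SKP2 (-1.16), with a median of -0.20. EZH2, the Polycomb methyltransferase, had a normalised count of 85.0 and 94.0 in control cells, 36.6 and 39.0 in shControl cells, 36.9 and 33.2 in shMETTL3 cells, and 38.0 and 35.8 in shMETTL14 cells. Its 6 senescent libraries lay together under the control libraries. After METTL3 knockdown 2 rose and 0 fell, MDM2 (1.51, SE 0.14, adjusted p = 1.8e-08, edgeR) and ETS1 (0.63), with a median of -0.12. MDM2, a ubiquitin ligase, had 546 and 573 in control cells, 456 and 403 in shControl cells, 1081 and 1368 in shMETTL3 cells, and 756 and 821 in shMETTL14 cells. After METTL14 knockdown 7 rose and 2 fell, led by ID1 (1.37), ETS1 (1.27), KLF6 (1.09) and the demethylase KDM6B (0.98), with KDM2B (-0.91) and ETS2 (-0.60) lower and a median of 0.28. The direct test had 7 higher and 1 lower with shMETTL14 than with shMETTL3, ID1 (2.03) and KDM6B (1.55) ahead and MDM2 (-0.64) the lower gene. With library size alone, 1 was higher and 13 lower in senescence, 8 and 0 after METTL3 knockdown, and 11 and 0 after METTL14 knockdown. Against shControl or control cells, the calls named for JUNB, MYC, SKP2, ID1, KDM6B, KDM2B and ETS2, and for ETS1 after METTL3 knockdown, were lost in at least 1 fit with a library left out.

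Around CDKN2A, 29 genes of the table overlap 1 Mb on either side, of which 10 were tested and 13 had no count in any library. The 16 genes of alpha, beta and omega interferons in this window were nearly silent, with no count for 12 of them and at most 5 in any library for the others. In senescence 6 of the 10 were higher and 0 lower, beside 13.3% and 13.3% of all genes tested, with a median of 0.91, and with library size alone 4 were higher and 2 lower. The 6 include CDKN2B-AS1, which was lower outside CDKN2B, and IFNE, which shares reads with MIR31HG, so they are not 6 separate rises. MIR31HG, the host RNA of miR-31 whose start lies at -435 kb from that of CDKN2A, had normalised counts of 188 and 172 in control cells, 3875 and 3318 in shControl cells, 4426 and 5253 in shMETTL3 cells, and 1501 and 2045 in shMETTL14 cells. The 4 groups did not overlap. It rose by 4.32 in senescence (SE 0.18, adjusted p = 1.2e-16, edgeR) and by 0.43 after METTL3 knockdown (SE 0.15, adjusted p = 0.040, edgeR), and fell by 1.02 after METTL14 knockdown (SE 0.15, adjusted p = 1.6e-05, edgeR). The second of these calls was lost with DESeq2 and in 5 of the 8 fits with 1 library left out. IFNE, an epithelial interferon gene, lies inside it and shares its reads. On the other side LINC01239, 652 kb away, rose by 3.60 in senescence (SE 0.56, adjusted p = 1.3e-05, edgeR) and by 1.59 after METTL3 knockdown (SE 0.31, adjusted p = 0.00048, edgeR). It had 7 and 3 counts in control cells and 48 and 47 in shControl cells, so the size of the first rise rests on few control reads.

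After METTL3 knockdown 6 of the 10 neighbours, CDKN2B and CDKN2B-AS1 included, were higher and 0 lower, beside 12.2% and 11.2% of all genes tested, with a median of 0.48, and with library size alone 8 were higher. The part of CDKN2B-AS1 outside CDKN2B did not pass here. FOCAD (0.52, adjusted p = 0.010, edgeR) and HACD4 (1.25, adjusted p = 0.023, edgeR) were among the 6, with differences of 0.03 and -0.75 in senescence that did not pass (adjusted p = 0.91 and 0.19, edgeR). After METTL14 knockdown 0 were higher and 2 lower, MIR31HG and MTAP, beside 9.15% and 12% of all genes, with a median of -0.43, and with library size alone 1 was higher and 1 lower. Between the knockdowns 7 were lower with shMETTL14 and 0 higher, beside 18.7% and 16.5% of all genes, from LINC01239 (-2.45) and MIR31HG (-1.45) to CDKN2B (-0.82), with a median of -0.93. These 7 again hold IFNE, whose reads are shared with MIR31HG, and CDKN2B-AS1, whose reads are taken to be shared with CDKN2B. LINC01239 had 8 and 50 counts in the shMETTL14 libraries, and leaving out either moved its fold by more than 1.5 times. KLHL9, between the interferon genes, was lower in shMETTL14 than in control cells (-0.59, adjusted p = 0.027, edgeR). The calls of FOCAD and HACD4 after METTL3 knockdown and of KLHL9 were lost in at least 1 fit with a library left out, and that of LINC01239 after METTL3 knockdown with DESeq2.

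**Figure D4:**
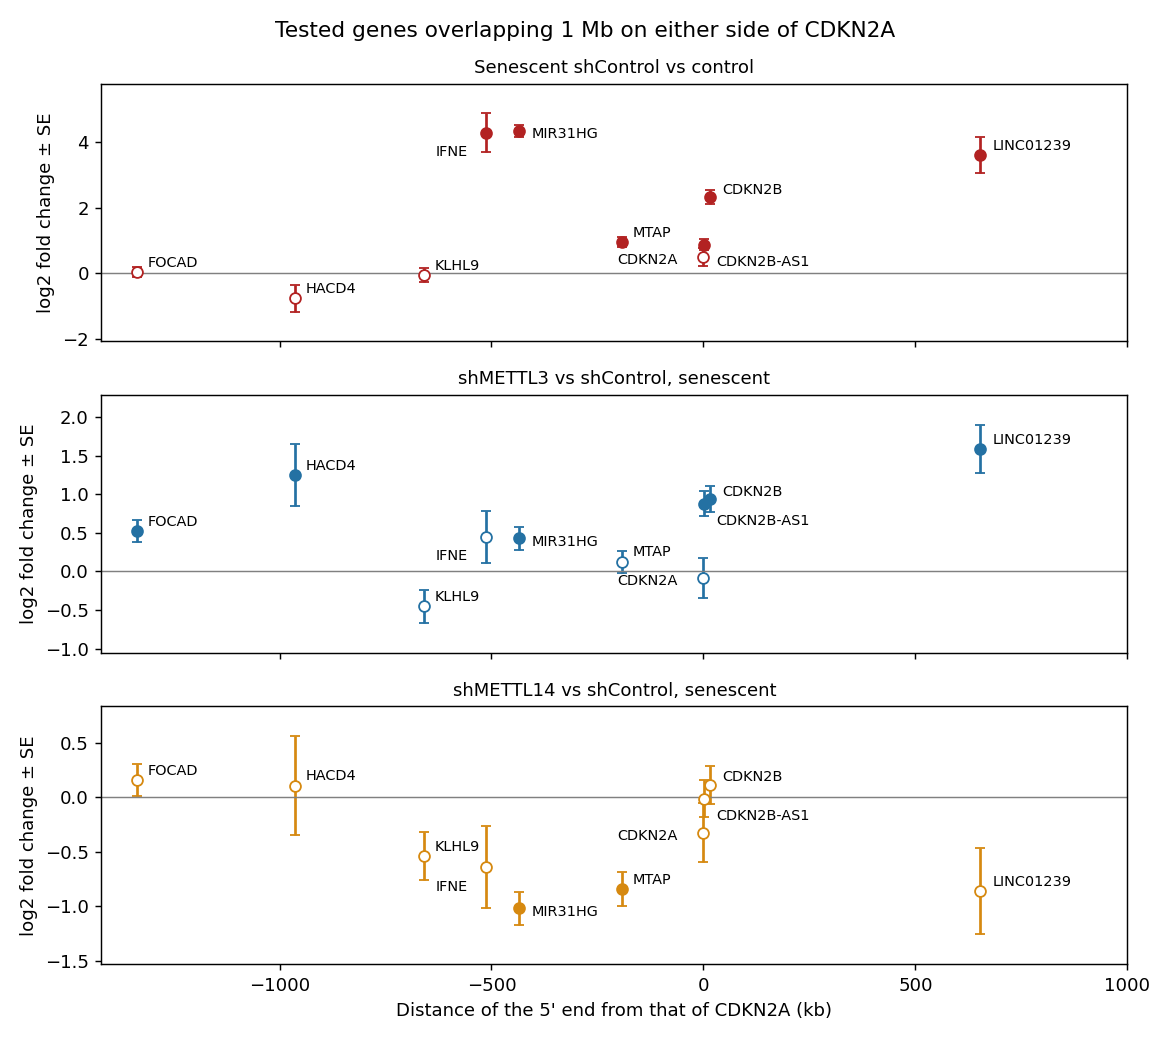
Log2 fold change with standard error of the 10 tested genes around CDKN2A, by distance of their starts from that of CDKN2A in kb, in 3 comparisons with filled points for an adjusted p below 0.05 (edgeR, TMM). MIR31HG stands at 4.32 in senescence and -1.02 after METTL14 knockdown, and CDKN2A is open in each panel.

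The genes whose log2 counts, scaled by library, ran most like those of each inhibitor over the 8 libraries were taken from the 3878 tested genes that average 100 counts or more. For CDKN1A these were DUSP1 (Pearson's r = 0.996), a phosphatase of MAP kinases, TXNIP (0.987) and PXN-AS1 (0.981). DUSP1 had normalised counts of 83.2 and 72.3 in control cells, 206 and 205 in shControl cells, 177 and 154 in shMETTL3 cells, and 628 and 531 in shMETTL14 cells. For CDKN2B they were ELK3 (0.998), an ETS factor, PITPNC1 (0.994) and DOCK5 (0.993), and for CDKN2A, whose range is narrow, B4GALT1 (0.938), ADPGK (0.909) and SSR2 (0.886). The libraries fall in 4 groups of 2 and share each library's depth, so these values of r are a description and carry no test.

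Markers describe the cells behind these counts. All 11 fibroblast markers were detected, with COL1A1 ahead per kilobase in control cells and VIM in the senescent groups, and their summed normalised count was 34165 and 31918 in control cells, 22092 and 23851 in shControl cells, 30309 and 25660 in shMETTL3 cells, and 14450 and 17177 in shMETTL14 cells. In senescence 8 of the 11 fell, led by DCN (-2.11) and COL3A1 (-1.86), and 1 rose, VIM (0.44), which lay at -0.05 with library size alone. After METTL3 knockdown 2 were higher, COL5A1 (0.55) and FN1 (0.52), and 2 lower, DCN (-2.91) and THY1 (-0.85). After METTL14 knockdown 8 were lower and 0 higher, among them DCN (-2.38) and PDGFRA (-1.32). The calls of VIM, COL5A1 and FN1 were lost in at least 1 fit with a library left out. The list medians were -1.0, 0.02 and -1.07. Of all genes tested, 13.3% were higher and 13.3% lower in senescence, and 12.2% and 11.2% after METTL3 knockdown. After METTL14 knockdown 9.15% were higher and 12% lower, and these shares also stand beside the marker lists below. The sum was lowest with shMETTL14, where RB1 and MTAP were lower than with shControl. MTAP was near as low in control cells (127 and 131), whose sum was highest. A link between the sum and these genes was not tested. Fewer transcribing cells and less transcription per cell cannot be told apart in bulk libraries.

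Of 9 markers of epithelial, endothelial and blood cells 2 were tested, and the sum of the list was 48.7 and 50.5 in control cells, 112 and 72.3 in shControl cells, 65.7 and 42.7 in shMETTL3 cells, and 106 and 86.4 in shMETTL14 cells. EPCAM and PECAM1 had at most 1 count in any library, CDH1 and CDH5 at most 2, PTPRC at most 4, KRT19 at most 7 and VWF at most 10. CD68, a lysosomal protein that is most abundant per kilobase of this list in each group and not limited to macrophages, had 17 and 16 counts in control cells and 60 and 45 in shControl cells, and rose in senescence (2.05, adjusted p = 2.6e-05, edgeR). KRT18, an epithelial keratin, had 23 and 24 counts in control cells, 25 and 15 in shControl cells, 12 and 13 in shMETTL3 cells, and 43 and 32 in shMETTL14 cells. It was higher with shMETTL14 than with shMETTL3 (1.63, adjusted p = 0.0014, edgeR) and than in control cells (0.89, adjusted p = 0.037, edgeR), the latter lost when either control or either shMETTL14 library was left out. CD68 was lower after METTL3 knockdown (-0.84, adjusted p = 0.040, edgeR), a call lost with DESeq2 and in 5 of the 8 fits with 1 library left out, and no marker of the list was called after METTL14 knockdown, with list medians of 1.10, -0.87 and 0.18 over the 2 genes.

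The 6 proliferation genes had a summed normalised count of 497 and 427 in control cells, 116 and 183 in shControl cells, 60.5 and 41.8 in shMETTL3 cells, and 70.0 and 68.4 in shMETTL14 cells. MKI67 was most abundant per kilobase in control cells and PCNA in the senescent groups. MKI67 had 224 and 201 raw counts in control cells, 25 and 53 in shControl cells, 1 and 0 in shMETTL3 cells, and 1 and 3 in shMETTL14 cells. The senescent libraries with a knockdown were thus lowest. In senescence 3 of the 6 fell, TOP2A (-2.27), MKI67 (-2.06) and CCNB1 (-1.24), with a median of -1.08. A further 2 calls came after METTL3 knockdown, MKI67 and TOP2A (median -1.43), and 3 after METTL14 knockdown, the same pair with CCNA2 (median -2.13, or -1.41 with genes of at most 3 counts in each library of a group set at 3), all lower. Between the knockdowns 0 of the 6 passed. The calls of CCNB1 in senescence and of CCNA2 were lost in at least 1 fit with a library left out. The 5 secretory genes IL1A, IL1B, IL6, CXCL8 and MMP3, which mark the senescent secretory phenotype, summed to 45.2 and 60.1 in control cells, 14843 and 13325 in shControl cells, 1207 and 1355 in shMETTL3 cells, and 2462 and 2125 in shMETTL14 cells. All 5 rose in senescence (median 7.12), all 5 fell after each knockdown (medians -2.68 and -2.23), and all 5 stayed above control cells. CXCL8 was most abundant per kilobase in each group. Scaled by library size alone, 3 of the 5 fell after METTL14 knockdown, and the calls of IL1A and IL6 there were lost in at least 1 fit with a library left out.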

How the data were processed

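fastGRO-seq libraries of IMR90 ER:RAS cells, 4 groups of 2, were analysed from 1 table. The authors aligned reads to hg19 and deposited raw counts per gene body, introns included, made with HOMER, together with the length of each gene in bases. The file header asks for reads on the opposite strand. For nested genes on opposite strands, the outer count was nevertheless not the smaller one in nearly all pairs checked. Their inner gene averaged at least 20 counts. Sharing of reads between strands was assumed from this and not measured. DINOL inside CDKN1A, with at most 5 counts in any library, was not among them. The spike-in was not used here.

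Counts of all 8 libraries were fitted with edgeR 4.0.16 in R 4.3.3 (TMM, filterByExpr with a minimum count of 10, quasi-likelihood test, Benjamini-Hochberg over 12844 of 27945 genes, threshold 0.05), after the test had been tried on simulated data. CDKN2B-AS1 without CDKN2B entered the same fit in place of the whole gene. Untested genes were compared by exact conditional 95% intervals for a ratio of summed counts. Figures were made in matplotlib 3.10.9.

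The genes and lists were chosen with earlier results of these data known. Of each list, at most 4 called genes with the largest absolute fold change were to be named, and E2F7, EZH2, MDM2, CCND1, MYC, JUNB, KDM2B, ETS2 and further neighbours of CDKN2A were described after their values were seen. A gene covered by this rule is left out of the text. Alternatives were DESeq2 1.42.0, 3 other scalings, TMM without ribosomal RNA, other filters and thresholds, fits without the groups not compared, a block for replicate number, counts outside overlapping genes, and each library left out. Those without LOC100507412, which spans the ribosomal RNA genes, and RB1 without LPAR6 were added after seeing the data. Rank tests were not run on 2 libraries against 2.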

Additional observations from a re-analysis of the deposited data

Results flagged for a closer look

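For 5 of the 7 tested genes the effects of the 2 knockdowns differed from each other in the direct test of shMETTL14 against shMETTL3 cells (edgeR). The difference in log2 fold change was 1.29 for CDKN1A, which was higher with shMETTL14, and -0.82 for CDKN2B, -0.89 for CDKN2B-AS1, -0.97 for MTAP and -0.61 for RB1, which were lower. The call of RB1 was lost with DESeq2, with 1 other scaling and without either of 2 single libraries. CDKN2B-AS1 is taken to share reads with CDKN2B, so these are not treated as independent. Of all genes tested 16.5% were higher and 18.7% lower in the same test.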

How the results depend on the processing

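Of the counts of called genes among the 10, 243 of 252 values over the alternatives stayed within 1.5 times the reported count, and of their log2 fold changes 852 of 894 kept direction and side of the threshold, 10 lost and 4 gained a call and 28 turned direction. Of the called fold changes of other genes 4054 of 4334 values stayed, 279 lost the call and 1 turned, and counts of the other lists moved in 232 of 2268. The cause of these moves was not tested, save where fewer libraries or genes entered.

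With library size alone, in senescence 2 genes were called higher and 1 lower and VIM was -0.053. After METTL3 knockdown CDKN1A was 0.33, CDKN2A 0.53, RB1 0.40 and the remainder of CDKN2B-AS1 1.19. After METTL14 knockdown 0 genes were lower, CDKN1B was 0.11, CDKN2A 0.029 and CDKN2B-AS1 0.33, and MTAP against control was -0.049. With library size without ribosomal RNA, CDKN2A after METTL3 knockdown was 0.17, RB1 0.035 and the remainder 0.84, CDKN2B-AS1 after METTL14 knockdown was 0.22, and 22.3%, 78.8% and 72.5% of called genes were higher in senescence and after METTL3 and METTL14 knockdown, with medians moved by -0.31, 0.25 and 0.23. With LOC100507412 also left out, chosen after seeing the data, CDKN2B-AS1 after METTL14 knockdown was 0.085, 1 gene (RB1) was lower in shMETTL3 cells than in control and the remainder there was -0.63. The higher share was then 38.8% and 56.5% after METTL3 and METTL14 knockdown, 65.9% between the knockdowns (46.9% with TMM) and 34.3% in shMETTL3 cells against control (49.96%), and the median moved by -0.11, 0.10, 0.20 and -0.20. It was 25.2% between the knockdowns and 37.2% in shMETTL14 cells against control (49.0% with TMM) with library size alone. With upper quartile scaling CDKN2B-AS1 after METTL14 knockdown was 0.014. With no filter, where untested genes enter, 1 gene was lower in senescence (CDKN2C), 1 after METTL3 knockdown (CDKN2D), 3 in shMETTL3 cells against control (CDKN1C, CDKN2C and CDKN2D) and 2 in shMETTL14 cells against control (CDKN2C beside RB1). Outside CDKN2B, CDKN2B-AS1 was -1.01 in senescence, -0.42 with shMETTL3 and -1.75 with shMETTL14 against control. Outside LPAR6, RB1 was 0.040 in senescence.

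Leaving out each library in turn, where a lone library is assumed to vary like the others, the values ranged in senescence from -0.29 to 0.15 for CDKN1B, -0.23 to 0.16 for RB1 and -1.09 to -0.92 for the remainder of CDKN2B-AS1. After METTL3 knockdown they ranged from 0 to 1 for genes lower (CDKN1A), -0.34 to 0.12 for CDKN2A and -0.0024 to 0.26 for MTAP. After METTL14 knockdown they ranged from -0.16 to 0.33 for CDKN2B, -0.31 to 0.21 for CDKN2B-AS1 and -1.24 to -0.39 for the remainder. Between the knockdowns CDKN2A ranged from -0.44 to 0.012 and the remainder from -1.82 to -0.97. Against control the remainder with shMETTL3 ranged from -0.71 to -0.19 and CDKN2A with shMETTL14 from -0.015 to 0.39. Replicate numbers did not pair the libraries (correlations of deviations -0.04 to 0.10), and with the replicate block 4 of the 10 genes were called higher in senescence and no count among them moved. Depth limits CDKN1B, CDKN1C, CDKN2C and CDKN2D most, at 0 to 29 counts per library.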
